A study of Homo sapiens with 12 samples.

Results

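Caspases are the proteases that carry out apoptosis, and the inhibitors of apoptosis are proteins that hold them back. Transcripts of 8 genes from this system were followed in RPMI2650 cells, an established human epithelial line from a tumour of the nasal septum: the inhibitors XIAP, BIRC2 and BIRC6, their antagonist DIABLO, the initiator caspases CASP2, CASP8 and CASP9, and the executioner caspase CASP6. They are 8 of the 50868 genes in the deposited table and were picked by symbol. The choice was made with earlier results of these same libraries known, so their levels and fold changes are a description and carry no test.

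The cells grew at an air-liquid interface in 3 groups of 4 libraries: control, 1 µM PFBA for 7 days and 1 µM PFHxA for 7 days. Both compounds are perfluorinated carboxylic acids that differ in chain length, PFBA being the shorter. For the control libraries the labels record neither a day nor a vehicle. Separate cultures are not stated for the 4 libraries of any group, so the p-values below measure the spread between these libraries, which may be technical. All groups are bulk RNA from 1 cell line, in which fewer cells of a type and less RNA per cell cannot be told apart.

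In the intrinsic pathway, cytochrome c released from mitochondria assembles the apoptosome, which activates caspase-9. In the extrinsic pathway, ligand-bound death receptors recruit and activate caspase-8, and both routes converge on the executioner caspases. XIAP binds and inhibits caspases directly, and BIRC2 is a ubiquitin ligase of tumour necrosis factor receptor signalling. BIRC6 is a very large ubiquitin-conjugating member of the family. DIABLO leaves mitochondria to bind these inhibitors and displaces XIAP from caspases.

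The promoters of XIAP and BIRC6 are shown because these 2 inhibitors are the ends of the range in spread between libraries, XIAP the most variable of the 8 genes and BIRC6 the steadiest by the coefficient of variation given further on. Each is the stretch of 250 bases before a RefSeq transcription start (GRCh38.p14, plus strand) that lies wholly upstream of the gene as the table places it, chrX:123859458-123859707 for XIAP and chr2:32356773-32357022 for BIRC6. Capitals mark the GC box searched, GGGCGG on either strand (CCGCCC on the other).
XIAP: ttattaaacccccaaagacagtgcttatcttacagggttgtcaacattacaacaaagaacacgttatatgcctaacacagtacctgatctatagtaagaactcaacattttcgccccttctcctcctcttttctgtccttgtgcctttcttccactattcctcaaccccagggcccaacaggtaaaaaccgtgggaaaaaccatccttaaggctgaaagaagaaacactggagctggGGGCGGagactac
BIRC6: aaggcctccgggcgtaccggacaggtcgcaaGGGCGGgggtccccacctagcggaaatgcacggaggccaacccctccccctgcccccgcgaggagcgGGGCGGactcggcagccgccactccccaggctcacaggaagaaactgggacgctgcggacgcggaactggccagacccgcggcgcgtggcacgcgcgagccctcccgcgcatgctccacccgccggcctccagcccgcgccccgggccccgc
The XIAP window holds 1 such match and is 44.8% G and C, whereas the BIRC6 window holds 2 and is 76.4% G and C. RefSeq gives further starts for both genes that are not shown: other windows of XIAP hold 0 and 2 matches (69.6% and 57.6% G and C) and another of BIRC6 holds 0 (74.0%), so the number of matches depends on the start chosen. The GC box occurs in 42.6% of 35116 RefSeq promoter windows of the same length. The CCAAT box (CCAAT or ATTGG) has 0 matches in both windows and occurs in 32.0% of all windows. The matches describe these letters and were not related to the levels.

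Library totals ranged from 16941599 to 21879105 reads counted to genes, from 16941599 to 21508681 in control, from 18411985 to 21879105 with PFBA and from 18051645 to 20405688 with PFHxA. The 6 epithelial markers summed to between 797.1 and 904.3 reads per 1000000 counted (CPM) in every library, with CDH1 at 8.46 CPM and CLDN4 at 1.57 CPM in control. The 4 leukocyte markers summed to 1.15 to 2.90 CPM, the 5 fibroblast markers to 2.89 to 5.99 CPM and the 3 endothelial markers to 6.74 to 11.5 CPM. Single markers differed within these lists. Of the leukocyte markers PTPRC had 0 to 2 reads per library and CD3E 0 to 1, but CD68 had 17 to 56. The endothelial marker CDH5 had 120 to 220 reads, at 8.63 CPM in control, and the fibroblast markers COL1A1 and PDGFRA had 34 to 58 and 15 to 64. The PFHxA libraries differed from the others in base composition: log2 CPM changed with transcript GC content by 0.0674 to 0.0984 per 10 percentage points in PFHxA, by -0.0621 to -0.00849 in control and by -0.0683 to -0.00362 in PFBA, relative to the mean of all libraries. Among 16554 tested genes, edgeR's quasi-likelihood test called 2466 between PFHxA and control (1006 higher), 1 between PFBA and control (higher) and 1806 between PFHxA and PFBA (636 higher), at an adjusted p of 0.05. Both acids were compared with the same 4 control libraries.

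**Figure D1:**
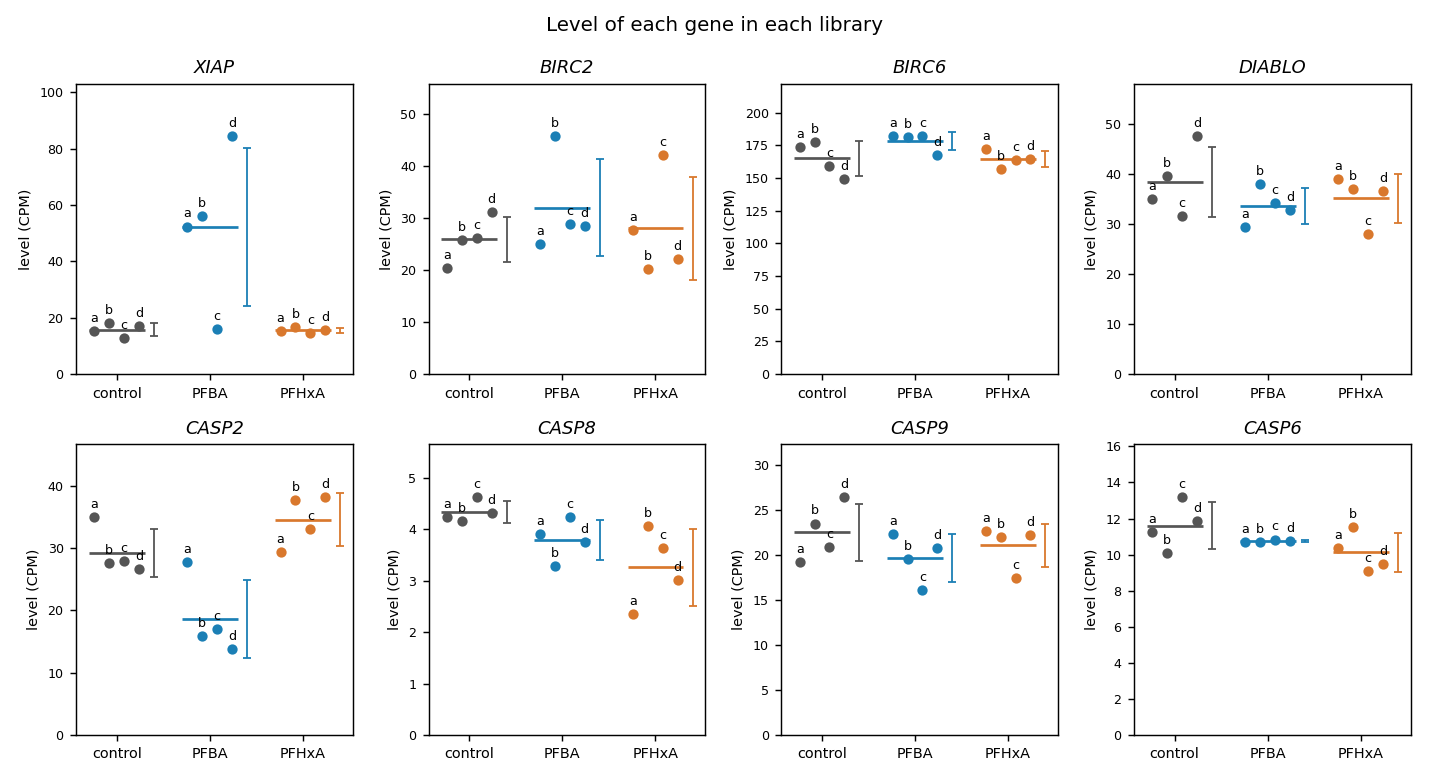
Level of each of the 8 genes in every library, in CPM on axes that start at 0, with 1 lettered point per library, a horizontal line at the mean of each group of 4 and a vertical bar of 1 SD either side of it. XIAP stands above 50 CPM in 3 of the 4 PFBA libraries and between 12.7 and 18.1 CPM in the control libraries.

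XIAP (ENSG00000101966, chromosome X from 123859724 to 123913979, plus strand) was high in 3 of the 4 PFBA libraries and nowhere else. The control libraries a, b, c and d stood at 15.3, 18.1, 12.7 and 16.9 CPM. The PFBA libraries stood at 52.3, 56.2, 15.9 and 84.4 CPM, from 1149, 1042, 330 and 1713 reads. The PFHxA libraries stood at 15.2, 16.7, 14.6 and 15.7 CPM. Library c of PFBA thus lay inside the control range, and the remaining PFBA libraries lay above every control and PFHxA library. The mean was 15.8 ± 2.33 CPM in control, 52.2 ± 28.1 with PFBA and 15.6 ± 0.890 with PFHxA (SD, n = 4 each). The fitted log2 fold change of PFBA against control was 1.73 (SE 0.394), a ratio of 3.31, and it ranged from 1.39 without PFBA d to 2.03 without PFBA c. Against control, PFHxA differed by -0.02 (SE 0.400). This SE rests on 1 estimate of spread for all 12 libraries, the PFBA libraries included. In the fit of the control and PFHxA libraries alone the difference was -0.02 (SE 0.108).

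XIAP shares its position with annotated genes on the other strand, and how the counting treated strand is not given in the sources used here. Both, XIAP-AS1 and AL121601.2, had 0 reads in all 12 libraries, as had BIRC8, a gene derived from XIAP. Whether reads from the other strand of the XIAP locus were kept out of its counts is therefore not known.

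BIRC2 (ENSG00000110330, chromosome 11 from 102347211 to 102378670, plus strand) had 1 high library in each exposed group. Control libraries a to d stood at 20.5, 25.8, 26.2 and 31.1 CPM. With PFBA they stood at 25.1, 45.8, 28.8 and 28.4 CPM, and with PFHxA at 27.7, 20.2, 42.2 and 22.1 CPM. PFBA b and PFHxA c were above every control library, and the other exposed libraries lay within 20.2 to 28.8 CPM, overlapping the controls. The group means were 25.9 ± 4.35, 32.0 ± 9.32 and 28.1 ± 9.93 CPM (SD, n = 4 each), giving log2 fold changes of 0.31 (SE 0.259) for PFBA and 0.12 (SE 0.260) for PFHxA against control. Without PFBA b the first of these was 0.09, and without PFHxA c the second was -0.14.

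BIRC6 (ENSG00000115760, chromosome 2 from 32357028 to 32618899, plus strand) was the most abundant of the 8 in CPM and had the lowest coefficient of variation among them, as given further on. Control libraries ranged from 148.9 to 177.5 CPM, PFBA libraries from 167.9 to 182.1 CPM and PFHxA libraries from 157.0 to 172.0 CPM. The PFBA and PFHxA means lay 0.11 above (SE 0.0554) and 0.01 below (log2 fold change -0.01, SE 0.0554) the control mean on the log2 scale, and the ranges overlapped. Leaving out 1 library gave 0.07 to 0.15 and -0.05 to 0.03. Among 6 annotated genes within or across BIRC6, the largest count was 39 reads in a library, for AL133243.2.

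DIABLO (ENSG00000184047, chromosome 12 from 122207662 to 122227534, minus strand) had overlapping ranges in all groups. It ranged from 31.5 to 47.6 CPM in control, from 29.4 to 38.04 CPM with PFBA and from 28.0 to 39.0 CPM with PFHxA. Its log2 fold changes against control were -0.19 (SE 0.133) for PFBA and -0.13 (SE 0.133) for PFHxA, and without control d, its highest library, they were -0.07 and -0.01. AC048338.1, an annotated gene that overlaps DIABLO on the same strand, had 275 reads in PFBA c and 0 in the other 11 libraries, while DIABLO itself stood at 34.1 CPM in PFBA c, inside the range of its group.

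CASP2 (ENSG00000106144, chromosome 7 from 143288215 to 143307696, plus strand), an initiator caspase activated on the PIDDosome, was low in 3 of the 4 PFBA libraries. Control libraries a to d stood at 35.0, 27.6, 27.9 and 26.7 CPM. The PFBA libraries stood at 27.7, 15.9, 16.95 and 13.8 CPM, from 609, 295, 352 and 280 reads, and the PFHxA libraries at 29.3, 37.8, 33.0 and 38.3 CPM. PFBA a lay within the control range, the other PFBA libraries lay below every control library, and every PFHxA library lay above every PFBA library. The means were 29.3 ± 3.86, 18.6 ± 6.23 and 34.6 ± 4.23 CPM (SD, n = 4 each). The log2 fold change against control was -0.65 (SE 0.195) for PFBA, -0.91 without PFBA a, and 0.24 (SE 0.192) for PFHxA. The PFHxA value was 0.24 with an SE of 0.109 in the fit of the control and PFHxA libraries alone.

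The libraries in which XIAP was high and CASP2 was low were not wholly the same. PFBA b and d had both, PFBA a had high XIAP with CASP2 at 27.7 CPM, and PFBA c had XIAP at 15.9 CPM with CASP2 at 16.95 CPM. Each pattern therefore rests on a different set of 3 PFBA libraries. The 2 pseudogenes inside CASP2, RN7SL535P and RN7SL481P, had 0 to 5 reads per library.

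CASP8 (ENSG00000064012, chromosome 2 from 201233443 to 201287711, plus strand), the initiator of the death receptor pathway, was the least abundant of the 8. Control libraries stood at 4.24, 4.16, 4.64 and 4.32 CPM, or 91, 82, 86 and 74 reads. The PFBA libraries stood at 3.92, 3.29, 4.24 and 3.75 CPM, and the PFHxA libraries at 2.35, 4.07, 3.63 and 3.02 CPM from 43, 77, 65 and 61 reads. Every PFHxA library was below every control library, by a margin of 4.07 against 4.16 CPM between the nearest libraries. The log2 fold change was -0.41 (SE 0.152) for PFHxA against control and -0.19 (SE 0.149) for PFBA against control. The PFHxA value was -0.28 without PFHxA a. With the trend in GC content and length removed from each library, it was -0.29 (SE 0.154).

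CASP9 (ENSG00000132906, chromosome 1 from 15490832 to 15526534, minus strand), the caspase of the apoptosome, ranged from 19.2 to 26.4 CPM in control, from 16.1 to 22.3 CPM with PFBA and from 17.4 to 22.6 CPM with PFHxA. Its log2 fold changes were -0.19 (SE 0.121) and -0.09 (SE 0.121) against control, and leaving out 1 library gave -0.26 to -0.11 and -0.16 to -0.01. CASP6 (ENSG00000138794, chromosome 4 from 109688622 to 109703583, minus strand), an executioner that cleaves nuclear lamins, ranged from 10.1 to 13.2 CPM in control, from 10.7 to 10.8 CPM with PFBA and from 9.11 to 11.5 CPM with PFHxA. Its log2 fold changes were -0.11 (SE 0.0939) and -0.19 (SE 0.0945), and leaving out 1 library gave -0.17 to -0.04 and -0.26 to -0.13. For both caspases the groups overlapped. MCUB, on the opposite strand and overlapping CASP6, had 339 to 448 reads per library. Whether reads of the 2 genes were kept apart where they overlap is not known.

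**Figure D2:**
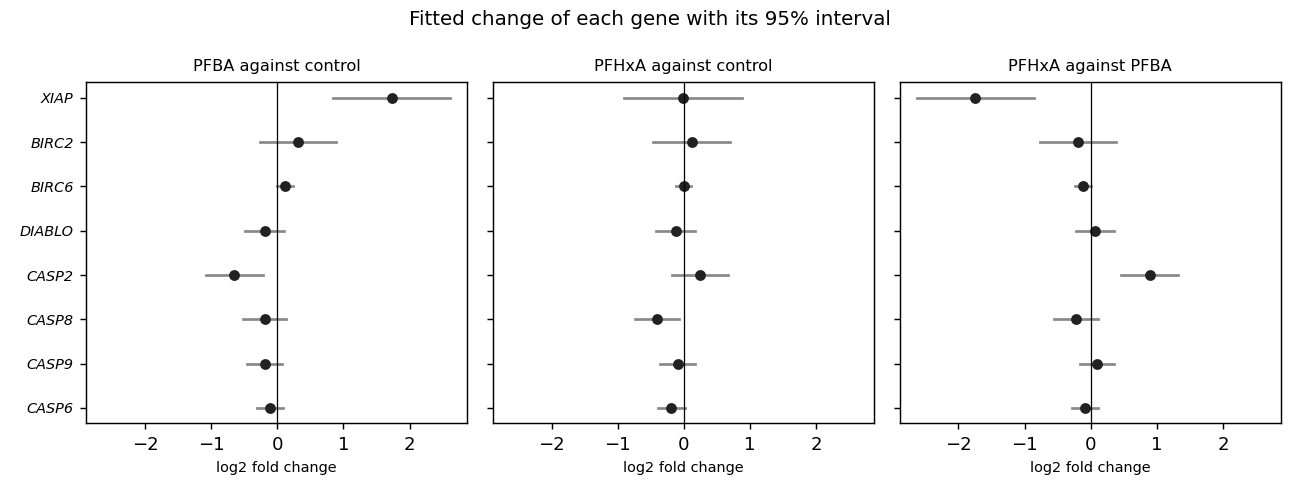
Log2 fold change of each of the 8 genes (points, horizontal axis) in the 3 comparisons from the edgeR fit of all 12 libraries, with 95% intervals as bars. XIAP lies at 1.73 for PFBA against control and at -1.74 for PFHxA against PFBA, and CASP2 at -0.65 and 0.89 in the same comparisons. The groups share 1 estimate of spread, so the intervals for PFHxA against control include the spread of the PFBA libraries.

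PFHxA and PFBA were given at the same dose and for the same time, which makes 1 matched pair of compounds. The pair differed most in XIAP and CASP2. XIAP was 3.35-fold higher with PFBA, a log2 fold change of PFHxA against PFBA of -1.74 (95% interval -2.63 to -0.86), and it was -1.41 without PFBA d and -2.05 without PFBA c. CASP2 was 1.86-fold higher with PFHxA (log2 fold change 0.89, 95% interval 0.46 to 1.32), and it ranged from 0.77 without PFBA d to 1.15 without PFBA a.

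For the other 6 genes, as for XIAP and CASP2, the 95% interval of the log2 fold change between the acids only describes its precision. It ran from -0.77 to 0.38 for BIRC2, from -0.24 to 0.00 for BIRC6 and from -0.22 to 0.36 for DIABLO. It ran from -0.55 to 0.11 for CASP8, from -0.16 to 0.36 for CASP9 and from -0.29 to 0.12 for CASP6.

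Counted at the threshold used for other genes, 0 of the 8 genes passed for PFHxA against control, where 14.9% of all tested genes passed, and 0 of 8 passed for PFBA against control, where 0.00604% passed. For PFHxA against PFBA 2 of 8 passed, XIAP lower and CASP2 higher, where 10.9% of all genes passed. At an unadjusted p of 0.05 in edgeR the counts were 1, 2 and 2, where 4719, 1632 and 4399 of all 16554 genes passed. At an adjusted p of 0.05 they were 0, 1 and 2 with DESeq2, where 2813, 44 and 2398 of all genes passed. With limma-voom they were 0, 0 and 1, where 2454, 0 and 1881 of all genes passed. The median log2 fold change of the 8 was -0.06, -0.15 and -0.10 in the 3 comparisons, and that of all tested genes -0.00385, -0.00262 and 0.00545. Groups did not overlap for CASP8 between PFHxA and control (1 of 8, against 20.7% of all genes), for CASP2 between PFHxA and PFBA (1 of 8, against 20.0%) and for none of the 8 between PFBA and control (against 5.96%). These counts describe genes chosen from the same libraries and are no test of them. Of the 2 genes counted between PFHxA and PFBA, XIAP was the one no longer counted with limma-voom, in the fit of the 8 libraries compared, with the GC trend removed, and without PFBA a, PFBA d, PFHxA b, PFHxA c or PFHxA d. XIAP was also the 1 gene counted between PFBA and control with DESeq2 and without PFBA c, as was CASP8 between PFHxA and control without PFHxA b.

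The spread of the 8 genes between libraries of the same group ran from very wide to very narrow. XIAP differed 5.31-fold between the lowest and the highest PFBA library, a spread that 20 of the 10072 genes at a mean of 10 CPM or more reached (0.199%), but 1.42-fold in control and 1.14-fold in PFHxA. The BIRC2 libraries differed 2.08-fold in PFHxA (2.51% of genes as wide), 1.82-fold in PFBA (4.07%) and 1.52-fold in control (8.13%). CASP2 differed 2.01-fold in PFBA (3.02%). The median of these genes was 1.16 in control, 1.14 in PFBA and 1.14 in PFHxA. CASP6 was the narrowest in PFBA at 1.01-fold, where 99.7% of the genes varied as much or more. It differed 1.31-fold in control (19.0% of genes as wide) and 1.26-fold in PFHxA (20.9%).

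Over all 12 libraries edgeR's biological coefficient of variation, the relative spread left after counting noise, was 0.368 for XIAP, 0.252 for BIRC2 and 0.190 for CASP2, against 0.0732 for BIRC6 and 0.0937 for CASP6. DIABLO at 0.135, CASP9 at 0.126 and CASP8 at 0.117 lay between. A coefficient as large as that of XIAP was found for 1.76% of the genes at 10 CPM or more, as large as that of BIRC2 for 4.33% and as large as that of CASP2 for 7.16%. For CASP6 this share was 32.7% and for BIRC6 66.8%. XIAP and CASP9, with the highest and one of the middle coefficients, had control levels of 15.8 and 22.5 CPM.

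**Figure D3:**
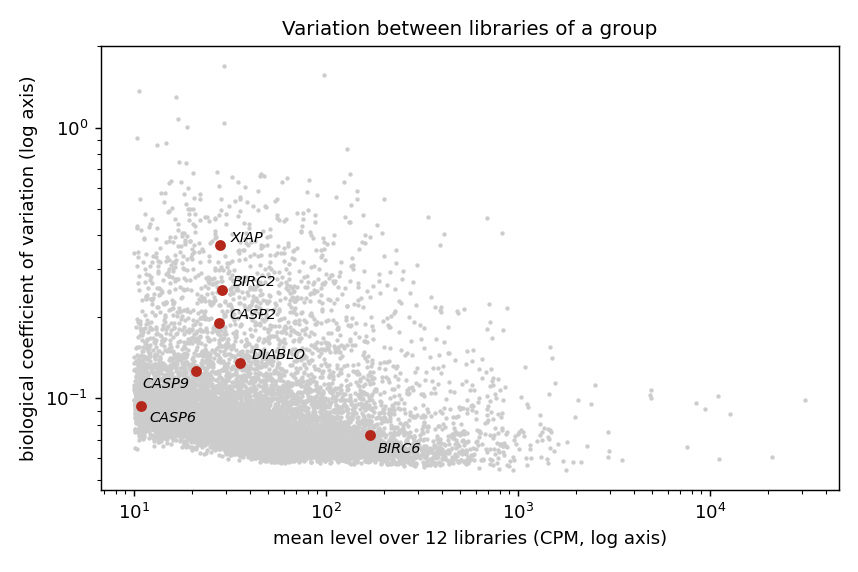
Biological coefficient of variation (vertical) against mean CPM over the 12 libraries (horizontal), both on log axes, for the 10072 genes at a mean of 10 CPM or more (grey), with 7 of the 8 genes in red; CASP8 lies below 10 CPM and is not drawn. XIAP at 0.368 and BIRC2 at 0.252 stand above most genes of their level. BIRC6 at 0.0732 is the lowest of the 7, a value that 66.8% of the 10072 genes reach.

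Levels between genes were compared per length, as CPM per 1000 bases of the longest GENCODE transcript. In control the order was DIABLO at 12.4 ± 2.24, BIRC6 at 10.5 ± 0.844, CASP6 at 7.49 ± 0.839, BIRC2 at 6.36 ± 1.07, CASP2 at 5.08 ± 0.669, CASP9 at 5.04 ± 0.710, XIAP at 1.83 ± 0.271 and CASP8 at 1.48 ± 0.0711 (SD, n = 4 each). Neighbours in this order overlapped between libraries except at 2 steps, between BIRC6 (lowest library 9.48) and CASP6 (highest 8.53) and between CASP9 (lowest 4.30) and XIAP (highest 2.11). With PFBA the per-length level of XIAP was 6.08 ± 3.27, its libraries reaching from 1.85 to 9.83. These levels rest on the longest transcript, which for DIABLO has 3103 bases and for BIRC6 15703, and the transcripts in use in these cells were not determined.

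The genes whose log2 CPM followed each of the 8 most closely over the 12 libraries, among genes at 10 CPM or more, are named as a description without a test. FIGN followed BIRC6 (Pearson r 0.936, Spearman rho 0.930), SMPD2 followed CASP6 (0.930 and 0.846) and ERCC1 followed DIABLO (0.927 and 0.937). For XIAP the closest was NXT2 (0.881 and 0.804), whose range of 10.5 to 19.3 CPM is narrower than that of XIAP. LMF2 followed CASP2 (0.897 and 0.699), RPP25L followed CASP9 (0.874 and 0.790), FH followed CASP8 (0.865 and 0.909) and FHL2 followed BIRC2 (0.845 and 0.790). Each r is the highest of many over 12 libraries that share 3 groups.

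Of 56 other genes of the apoptosis system 47 had enough reads for a test, and the remaining 9 are given further on. Between PFHxA and control 8 of the 47 were called by edgeR (17.0%, against 14.9% of all genes): BIRC5, TNFRSF10B, BMF and GSN rose (4 of 47, where 6.08% of all genes rose), and FAS, CASP8AP2, ROCK1 and UBA6 fell (4 of 47, where 8.82% fell). Between PFHxA and PFBA 6 were called (12.8%, against 10.9%): BIRC5 and BAX were higher (2 of 47, against 3.84% of all genes) and FAS, CASP8AP2, ROCK1 and UBA6 were lower with PFHxA (4 of 47, against 7.07%). Between PFBA and control edgeR called 0 of the 47, with 4 at an unadjusted p of 0.05, where 1632 of all 16554 genes passed. DESeq2 called 1 of the 47 (BMF) and 44 of all genes, and limma-voom called 0 of the 47 and 0 of all genes. Leaving out 1 library, the first count (8) was 5 without control b, control d or PFHxA d and 4 without PFHxA b, and the second (6) was 4 without PFBA a or PFBA c and 3 without PFBA d or PFHxA b. The median log2 fold change of the 47 was 0.06, 0.08 and -0.02 in these comparisons.

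**Figure D4:**
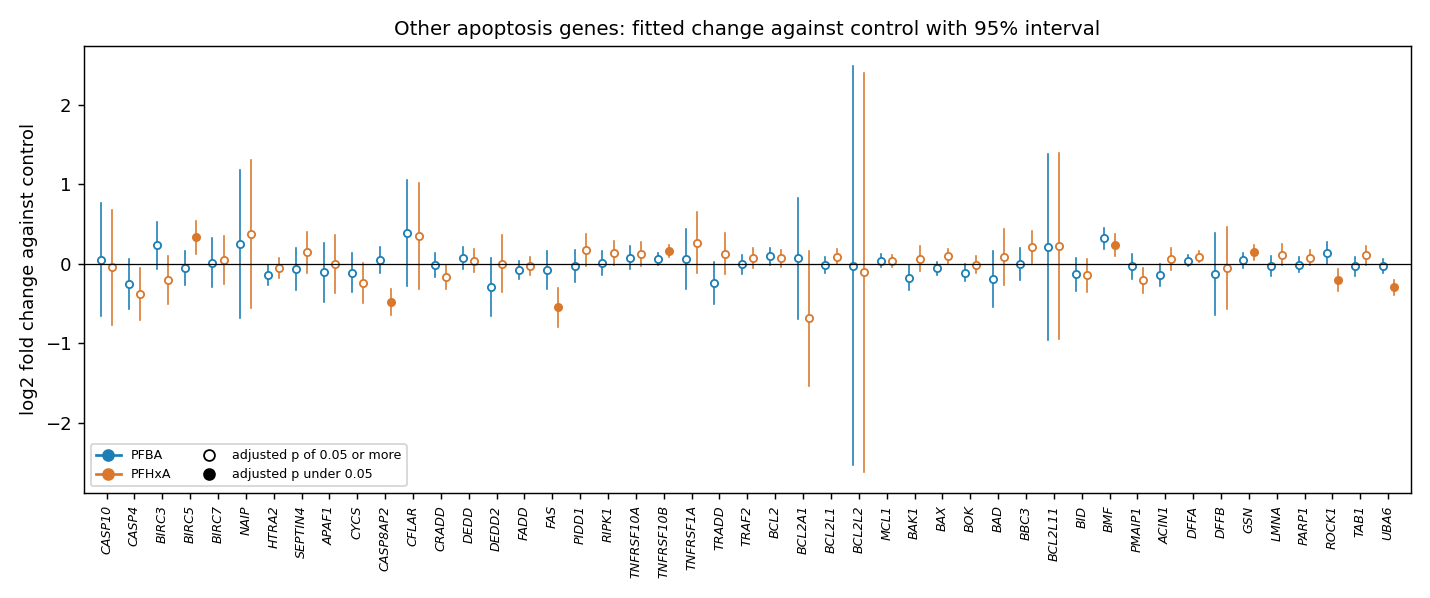
Log2 fold change against control (points, vertical axis) with 95% intervals (bars) for 47 other tested genes of the apoptosis system, PFBA in blue and PFHxA in orange, filled where the edgeR adjusted p is under 0.05. CASP8AP2 at -0.47 and FAS at -0.55 lie below 0 for PFHxA against control.

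CASP4, an inflammatory caspase, stood at 3.30, 2.76 and 2.54 CPM and did not pass (PFHxA against control -0.38, edgeR adjusted p = 0.110). CASP10, the close relative of CASP8, was near the limit of detection at 0.528, 0.552 and 0.514 CPM.

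Of the 4 other tested inhibitors of apoptosis, BIRC5 (survivin, which also acts in cell division) rose with PFHxA and the remaining 3 did not pass. BIRC5 stood at 19.7 ± 1.63 CPM in control, 19.0 ± 1.27 with PFBA and 24.8 ± 3.55 with PFHxA. Its log2 fold change was 0.33 against control (SE 0.0982, edgeR adjusted p = 0.0377) and 0.38 against PFBA (adjusted p = 0.0238). The call against control was lost without any 1 of the control libraries, PFHxA b or PFHxA d (adjusted p = 0.0515 to 0.108), and that against PFBA without PFBA d, PFHxA b or PFHxA d (adjusted p = 0.0608 to 0.0739). BIRC3, the closest relative of BIRC2, stood at 14.95, 17.6 and 13.1 CPM (PFHxA against PFBA -0.43, adjusted p = 0.0636), BIRC7 at 6.32, 6.43 and 6.57 CPM and NAIP at 0.380, 0.445 and 0.497 CPM.

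Around CASP8, the death receptor FAS and the caspase-8 associated protein CASP8AP2 fell with PFHxA, and the TRAIL receptor TNFRSF10B rose. FAS stood at 26.8 ± 1.77, 25.3 ± 4.20 and 18.3 ± 1.66 CPM in control, PFBA and PFHxA, with a log2 fold change of -0.55 against control (edgeR adjusted p = 0.00651) and -0.47 against PFBA (adjusted p = 0.0174, lost without PFBA a, PFBA c, PFBA d or PFHxA b at 0.0510 to 0.0605). CASP8AP2 stood at 33.9 ± 1.44, 35.1 ± 2.41 and 24.4 ± 2.51 CPM, with -0.47 against control (SE 0.0750, adjusted p = 0.00203) and -0.53 against PFBA (SE 0.0749, adjusted p = 0.00182). TNFRSF10B stood at 380.7 ± 10.9, 396.2 ± 8.84 and 427.1 ± 7.36 CPM and rose by 0.17 against control (adjusted p = 0.00671), while its 0.11 against PFBA did not pass (adjusted p = 0.0591).

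UBA6, the ubiquitin-activating enzyme that works with BIRC6, fell with PFHxA from 83.0 ± 1.28 CPM in control and 81.3 ± 3.77 with PFBA to 67.6 ± 2.01. The log2 fold change was -0.30 against control (edgeR adjusted p = 0.00161) and -0.27 against PFBA (adjusted p = 0.00252), while BIRC6 itself differed by -0.01 and -0.12 in these comparisons.

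Among BCL2 family genes and caspase substrates the called differences were small. BMF, a BH3-only protein, stood at 21.1 ± 1.32, 26.3 ± 0.579 and 24.8 ± 1.55 CPM in control, PFBA and PFHxA and rose by 0.24 with PFHxA (edgeR adjusted p = 0.0242, lost without control d, PFHxA b or PFHxA c at 0.0625 to 0.0670). With PFBA its log2 fold change of 0.32 did not pass (edgeR adjusted p = 0.269). Every PFBA library lay above every control library for BMF. Such a lack of overlap, in either direction, was found for 2 of the 47 (BMF and ROCK1) and for 5.96% of all genes. BAX, a pore-forming effector, was higher with PFHxA than with PFBA by 0.15 (adjusted p = 0.0232, lost without any 1 of the PFBA libraries, PFHxA b or PFHxA c at 0.0502 to 0.0719). ROCK1, a kinase that caspases cleave, fell by 0.21 on the log2 scale against control (adjusted p = 0.0451, lost in 9 of 12 fits without 1 library, those without PFBA a, b, c or d, control a, b or c, or PFHxA b or d, at 0.0512 to 0.121) and differed by -0.34 from PFBA (adjusted p = 0.00542). GSN, an actin-severing caspase substrate, rose by 0.15 (adjusted p = 0.0440, lost in 8 such fits, those without PFBA b or d, control a, b or d, or PFHxA b, c or d, at 0.0513 to 0.116).

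GC content moved with these calls. The transcripts of the 4 genes that fell with PFHxA held 35.7% (UBA6) to 40.5% (ROCK1) G and C, and those of the 4 that rose 49.8% (GSN) to 54.8% (BMF). With the trend in GC content and length removed from each library, 1 of the 47 was called between PFHxA and control and 1 between PFHxA and PFBA, in both cases CASP8AP2 (log2 fold change -0.33 in each, edgeR adjusted p = 0.0196 and 0.0303). FAS then stood at -0.34 (adjusted p = 0.0900) and -0.27 (adjusted p = 0.228), ROCK1 at -0.15 (adjusted p = 0.181) and -0.21 (adjusted p = 0.0975), and BIRC5 at 0.29 (adjusted p = 0.144) and 0.32 (adjusted p = 0.159). UBA6 moved further, to -0.15 against control (adjusted p = 0.0543) and -0.05 against PFBA (adjusted p = 0.610). Against control GSN stood at 0.04 (adjusted p = 0.684), BMF at 0.13 (adjusted p = 0.268) and TNFRSF10B at 0.11 (adjusted p = 0.0529), and BAX against PFBA at 0.07 (adjusted p = 0.465). The transcripts of XIAP and CASP2 hold 39.0% and 43.6% G and C, and with the trend removed their log2 fold changes between PFHxA and PFBA were -1.58 (SE 0.392) and 0.96 (SE 0.192), of which XIAP no longer passed the threshold used for other genes. Between PFHxA and control, removal moved CASP8 from -0.41 to -0.29 (SE 0.154) and CASP6 from -0.19 to -0.10 (SE 0.0942). CASP9 moved from -0.09 to -0.19 (SE 0.128) and BIRC2 from 0.12 to 0.31 (SE 0.266). The part of GC content in the changes of the single genes was not tested further.

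The 9 genes without a test had few reads in every library. CASP1 had 3 to 12 reads, CASP5 had reads in 1 library (up to 4), XAF1, an antagonist of XIAP, 1 to 12 reads, BIK 0 to 12, HRK 0 to 3 and BCL2L10 0 to 2. CASP12, CASP14 and BIRC8 had 0 reads in all 12 libraries, which in the smallest library allows up to 0.177 CPM (3 counts), a limit for counting error only.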

How the data were processed

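RNA was sequenced from 12 libraries (VAHTS Universal V6 kit, Illumina NovaSeq, per the labels). The authors deposited raw read counts per gene, made after alignment with HISAT2 2.0.4 to GRCh38 (hg38), per the submitters' processing notes. Another 12 columns of the table (FPKM) were not used. What counted the reads, with which annotation release and strand option, is not given in the sources used here. Columns were assigned to groups by their prefixes (BA, Ck, HA) and libraries named by the column's letter, a to d, which no source ties to a label number.

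Genes were kept by filterByExpr (minimum count 10, total 15), scaled by TMM and fitted over all 12 libraries with edgeR 4.0.16 (quasi-likelihood F test, robust, two-sided, group as the term, Benjamini-Hochberg adjustment over 16554 genes, threshold 0.05). Intervals are at 95%, and log2 CPM was computed with prior count 2. Alternatives were other scalings and filters, a fit of the 8 libraries compared, DESeq2 1.42.0, limma-voom (limma 3.58.1), a GC and length trend removed per library (splines with 5 degrees of freedom each, GENCODE 29 transcripts), a block by column letter, and leaving out each library. R 4.3.3 and Python 3.11.15 (pandas 2.3.3, numpy 2.4.6, scipy 1.17.1, matplotlib 3.10.9) were used. Replicate pairs of each group differed by more than counting noise (chi-square per degree of freedom at least 9.86), so no pair was taken as 1 library deposited again, which does not show that they came from separate cultures. The fit was tested on simulated data.

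The 8 genes, the gene lists, the tests and the alternatives were chosen with earlier results of these data known. Named genes are the 8, every other caspase and inhibitor of apoptosis of the list, at most 4 called genes from each other group of the list by smallest p, and for each of the 8 the gene with the highest Pearson r. Some items of the list are not reported here. Others are said to be chosen after their values were seen.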

Additional observations from a re-analysis of the deposited data

Results flagged for a closer look

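In 5 cases 1 of 4 libraries stood far from the other 3, with a gap to its neighbour large against the range of the group. Chance gives this in about 1 in 20 groups, and 66 groups (22 genes in 3 groups) were looked at. CASP2 stood at 35.0 CPM in control a and at 26.7 to 27.9 CPM in the other control libraries. CASP9 stood at 17.4 CPM in PFHxA c and at 21.9 to 22.6 CPM in the other PFHxA libraries. BIRC6 stood at 167.9 CPM in PFBA d and at 181.3 to 182.1 CPM in the other PFBA libraries. BIRC3 stood at 11.2 CPM in control c against 16.1 to 16.3 CPM, and BIRC7 at 8.09 CPM in PFBA b against 5.74 to 5.96 CPM. The XIAP libraries of PFBA, though wider than these, did not meet this measure, since their values are spread out.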

How the results depend on the processing

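After removal of the GC and length trend, the genes called fell to 436 for PFHxA against control and 146 for PFHxA against PFBA, the other genes of the apoptosis system called to 1 in each, and the 8 genes past the threshold for PFHxA against PFBA to 1. For PFBA against control 2 genes were called without a filter, 2 in the fit of the 8 libraries compared, 44 by DESeq2, 0 by limma-voom and 0 with a replicate block. DESeq2 called 1 of the other apoptosis genes and passed 1 of the 8 genes for PFBA against control. For PFHxA against PFBA it called 10 of the others, and 2398 of all genes. In the fit of the 8 libraries compared 5 of the others were called for PFHxA against control, and 1952 of all genes. For PFHxA against PFBA 1 of the 8 passed in the fit of the 8 libraries compared and 1 by limma-voom. These settings called 1880 and 1881 of all genes. Leaving out 1 library at a time, genes called ranged from 1523 to 2396 for PFHxA against control, from 0 to 4 for PFBA against control and from 1035 to 2187 for PFHxA against PFBA. The other apoptosis genes called ranged from 4 to 8, stayed at 0 and ranged from 3 to 7, and the 8 genes past the threshold from 0 to 1, from 0 to 1 and from 1 to 2. The labels' numbers are shared between groups but the columns carry letters, so the pairing is not known, and the block by column letter (2441, 0 and 1838 genes called) does not rest on the design. Under that block BIRC5 (edgeR adjusted p = 0.0607) and GSN (adjusted p = 0.0747) lost their calls for PFHxA against control. In the fit of the 8 libraries compared BIRC5 (0.0663), BMF (0.0573) and ROCK1 (0.0823) did. ROCK1 also lost this call with upper-quartile scaling (0.0550), and GSN without a filter (0.0814). BAX lost its call for PFHxA against PFBA without a filter (0.0690). Among the other single genes named, 59 values lost their call, 8 gained one and 807 stayed on their side of the threshold. The 504 alternative log2 fold changes of the 8 genes moved by less than 1 SD between libraries, whether or not they passed the threshold. For the fits without 1 library this was nearly fixed in advance. Leaving out 1 of 4 values moves their mean by less than their SD, so this does not show that the values are steady. XIAP for PFBA against control ran from 1.39 to 2.03 in those fits. Of all 1378 values the sign changed in 35, each one a value that was not called. The cause of these shifts was not tested. Depth limits CASP8, at 43 to 91 reads per library, and the genes below 1 CPM.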

Other observations

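Some other apoptosis genes also varied widely between libraries of the same group, but unlike XIAP not in PFBA alone. They were chosen after their values were seen. BCL2L2 (BCL-w), a guardian against apoptosis, took 2 levels, at 50.0 to 55.4 CPM in 6 libraries and at 3.71 to 7.60 CPM in the other 6. The high libraries were control a and b, PFBA b and c, and PFHxA b and d, so each group held both levels. Its biological coefficient of variation was 1.04, which 0.0596% of genes at 10 CPM or more reached. The read-through gene BCL2L2-PABPN1, which overlaps it, had 116 to 232 reads per library, and HOMEZ, overlapping on the other strand, 316 to 1012. Both genes were lower in PFBA c (116 and 378) and PFHxA b (140 and 316), which were high for BCL2L2. In the other libraries high for BCL2L2, HOMEZ had 819 (PFBA b) to 1012 (control a) reads. How reads were shared between these genes was not tested. BCL2L11 (BIM), a BH3-only protein, stood at 4.11 CPM in control b, 3.95 CPM in PFBA c and 2.27 CPM in PFHxA d, and at 7.55 to 13.4 CPM elsewhere. CFLAR (FLIP), the inhibitor of caspase-8 activation, stood at 19.4 CPM in PFBA d and 20.7 CPM in PFHxA c, and at 8.40 to 11.1 CPM in the other 10 libraries. The libraries that stood apart were not wholly the same for these genes and XIAP. PFBA d was the highest library for XIAP and was also high for CFLAR, but PFBA a and b, high for XIAP, were not. PFBA c was the lowest PFBA library for both XIAP and BCL2L11.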
